A study of Mus musculus with 6 samples.

Results

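The 9 skeletal-type genes described here are Ryr1, Casq1, Jsrp1, Sypl2, Jph1, Cacna1s, Cacng1, Stac3 and Atp2a1, out of 23337 genes in the count table. They form a named list and were picked with the SRF-OE and GFP values of these libraries already known. Their differences between the groups are therefore a description, and where calls on them are counted, the calls are no test of the members.

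In skeletal muscle, the triad joins a T-tubule to terminal cisternae of the sarcoplasmic reticulum, and depolarization of the T-tubule is passed to the store by contact between a voltage sensor and a release channel. Cardiomyocytes (CMs) build a dyad instead, from cardiac paralogs of the same proteins, in which calcium entry opens the release channel.

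Wildtype mice were injected at P1 with 5e8 vg per g of AAV9-cTNT-SRF-2A-GFP (SRF-OE) or of AAV9-cTNT-GFP (GFP), and CMs were collected at P14 by collagenase perfusion and sorted for GFP. SRF is serum response factor, a transcription factor, and the cardiac troponin T promoter (cTNT) drives both vectors in CMs. The vector reaches a mosaic of CMs, and the sort keeps those with GFP. The labels list 3 biological replicates per group, but the column headed SRF-OE replicate 1 holds gene lengths, so 2 SRF-OE and 3 GFP libraries were analysed, with total counts between 14137433 and 23159631. The first column of the count table, headed Chr, holds gene symbols, so its header also goes against its content. Since 6 library names head 1 column of lengths and 5 of counts, the names may be displaced by 1 column. The library labelled GFP1 would then be an SRF-OE library, every replicate number would shift, and group means and fold changes with the 5 libraries would mix the groups. The sources used here do not settle this, and the names were kept as deposited.

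The targeted gene went against 1 label. Srf was at 360 and 748 CPM (counts scaled to library size with edgeR's TMM factors) in SRF-OE replicates 2 and 3 and at 67.3 and 85.1 CPM in GFP replicates 2 and 3. The library labelled GFP1 had 338 CPM, near SRF-OE replicate 2. That library is named as labelled throughout, and fold changes are given with and without it. By edgeR, its log2 fold change of SRF-OE over GFP was 1.76 ± 0.71 (± standard error, adjusted p = 0.36) with the 5 libraries. Once the library labelled GFP1 was left out it was 2.87 ± 0.37, given with no test because its Srf level is what set that library apart.

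The stretches upstream of 3 members are shown because Casq1 and Sypl2 were the members with high values in SRF-OE, whereas Cacna1s stayed low in all libraries. They are read from RefSeq promoters on GRCm38.p6, 5′ to 3′ on the strand of the gene, and are cut where the GENCODE gene begins. Capitals mark CAGCTG, a core sequence bound by myogenic bHLH factors, and GGAATG, the reverse complement of the CATTCC core bound by TEAD factors.
Casq1, chr1:172219896-172220145, minus strand: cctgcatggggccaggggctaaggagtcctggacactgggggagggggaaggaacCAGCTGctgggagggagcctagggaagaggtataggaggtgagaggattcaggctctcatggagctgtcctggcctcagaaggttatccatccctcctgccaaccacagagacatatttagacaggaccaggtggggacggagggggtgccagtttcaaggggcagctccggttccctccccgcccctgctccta
Sypl2, chr3:108226649-108226849, minus strand: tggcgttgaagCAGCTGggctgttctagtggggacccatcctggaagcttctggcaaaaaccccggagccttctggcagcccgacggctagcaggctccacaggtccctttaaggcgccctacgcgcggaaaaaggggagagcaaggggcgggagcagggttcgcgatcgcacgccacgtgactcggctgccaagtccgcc
Cacna1s, chr1:136052561-136052749, plus strand: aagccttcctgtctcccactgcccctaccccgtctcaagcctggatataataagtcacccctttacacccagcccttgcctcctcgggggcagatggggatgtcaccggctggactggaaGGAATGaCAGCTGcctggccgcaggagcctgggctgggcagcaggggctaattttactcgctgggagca

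RefSeq promoters were found for 5 of the 9 members, Casq1, Sypl2, Ryr1, Atp2a1 and Cacna1s, and the 250 bases before each start were searched on both strands. A CArG box, the sequence SRF binds, was in 0 of the 5 and in 1.47% of 32851 promoters. The same search found 2 CArG boxes before Srf itself, CCATATAAGG beginning 82 bases and CCATAAAAGG beginning 62 bases before the start. CAGCTG was found before 4 of the 5 members, at 195 bases in Casq1, 239 in Sypl2, 55 in Atp2a1 and 123 in Cacna1s, counted from the RefSeq start, and in 13.0% of all promoters. For Sypl2 and Cacna1s that start lies downstream of the end of the printed stretch. A MEF2 box was in 0 of the 5 and in 2.92% of all promoters, and CATTCC or GGAATG in 1 of the 5 and in 12.6%. The motifs do not overlap one another in these stretches. A match describes letters only, and the absence of a match says nothing about sites outside this window.

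The members differed widely among themselves. Casq1, the skeletal calsequestrin, and Sypl2, a membrane protein of the triad, were at least 11.7-fold and 32-fold higher in either SRF-OE library than in GFP replicates 2 and 3. Jsrp1 was higher by a smaller margin. Jph1 and Cacna1s were lower in both SRF-OE libraries than in any GFP library. Ryr1, Stac3 and Cacng1 had so few counts in every library, at most 13, that only large differences could have been seen. Atp2a1, with 15 to 33 counts per library, had SRF-OE values within the range of the GFP libraries as labelled, and a small difference could not have been seen.

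**Figure D1:**
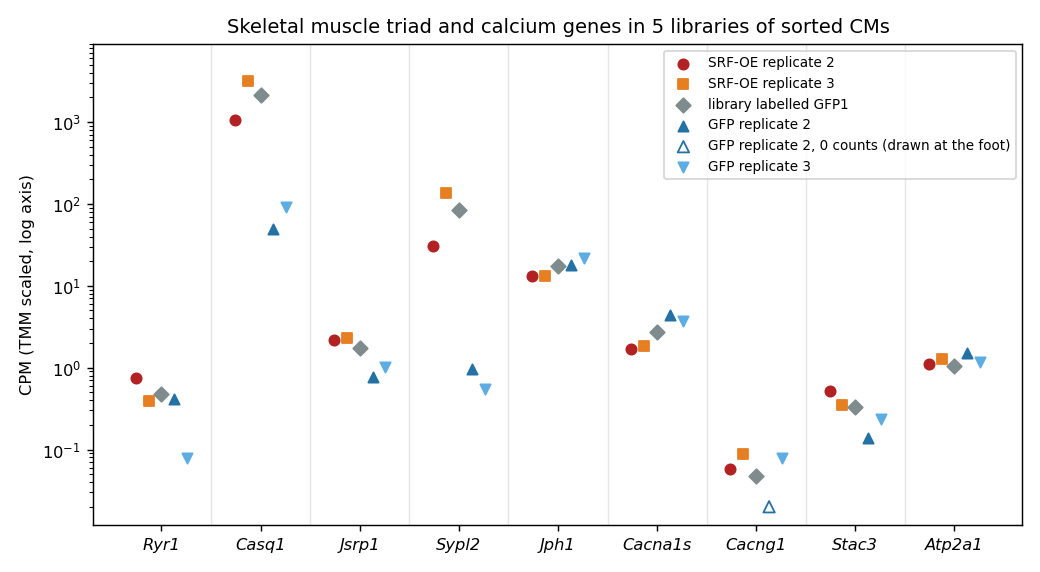
CPM of the 9 members (log axis) in each of the 5 libraries, 1 point per library. Casq1 lies between 1072 and 3217 CPM in SRF-OE and at 49.1 and 92.0 CPM in GFP replicates 2 and 3, Sypl2 lies at lower levels and is also higher in SRF-OE than in these GFP replicates, and for both genes the library labelled GFP1 sits between the SRF-OE libraries.

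Calsequestrin is the protein that holds calcium inside the terminal cisternae. Casq1 (ENSMUSG00000007122.11, chromosome 1 of GRCm38, 172209894 to 172219868) had 1072 CPM in SRF-OE replicate 2, 3217 CPM in SRF-OE replicate 3, 2121 CPM in the library labelled GFP1, and 49.1 and 92.0 CPM in GFP replicates 2 and 3. Both SRF-OE libraries lay far above GFP replicates 2 and 3, and the library labelled GFP1 lay between the SRF-OE libraries. Its SRF-OE mean was 2145 ± 1517 CPM (SD, n = 2), against 754 ± 1184 CPM (SD, n = 3) in GFP as labelled, and 70.5 ± 30.3 CPM (SD, n = 2) in GFP replicates 2 and 3. Its log2 fold change was 1.51 (standard error 1.46) with the 5 libraries and 4.94 (standard error 0.64) without the library labelled GFP1. Casq1 took 0.116% and 0.346% of all counts in SRF-OE replicates 2 and 3, against 0.00462% and 0.00824% in GFP replicates 2 and 3. Ranked by CPM per kb of gene length, it was the 120th and the 32nd gene of the table in the SRF-OE libraries, the 74th in the library labelled GFP1, and the 2596th and the 1456th in GFP replicates 2 and 3.

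Sypl2, or mitsugumin 29, is a synaptophysin-like membrane protein of the triad junction. Sypl2 (ENSMUSG00000027887.11, chromosome 3, 108211472 to 108226648) had 30.8 CPM in SRF-OE replicate 2, 136 CPM in SRF-OE replicate 3, 83.6 CPM in the library labelled GFP1, and 0.963 and 0.553 CPM in GFP replicates 2 and 3. The last 2 values rest on 21 and 7 counts, with exact Poisson 95% intervals of 0.596 to 1.47 and 0.222 to 1.14 CPM. These intervals cover counting error only. The order of the libraries was that of Casq1, except that the GFP replicates changed places. The log2 fold change was 1.55 (standard error 1.70) with the 5 libraries and 6.71 (standard error 0.89) without the library labelled GFP1.

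The SRF-OE libraries were themselves unequal. Replicate 3 had 3.0 times as much Casq1 as replicate 2, 4.42 times as much Sypl2 and 2.08 times as much Srf. Across the other members with at least 10 counts in both of these libraries, the same ratio was 1.04 for Jsrp1, 0.999 for Jph1, 1.10 for Cacna1s and 1.15 for Atp2a1. The library labelled GFP1 had less Srf than SRF-OE replicate 2 but more Casq1 and Sypl2, so the order of the libraries by Srf was not their order by these genes.

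Jsrp1 encodes a junctional protein of the sarcoplasmic reticulum, also called JP-45, that binds calsequestrin and the voltage sensor. Jsrp1 (ENSMUSG00000020216.13, chromosome 10, 80808496 to 80813498) had 2.20 and 2.27 CPM in SRF-OE replicates 2 and 3, 1.76 CPM in the library labelled GFP1, and 0.780 and 1.03 CPM in GFP replicates 2 and 3. Both SRF-OE libraries were above all GFP libraries. The log2 fold change was 0.90 (standard error 0.44) with the 5 libraries and 1.33 (standard error 0.41) without the library labelled GFP1. Summed over libraries, 90 counts in SRF-OE against 30 in GFP replicates 2 and 3 gave a ratio of 2.57 after scaling, with an exact interval of 1.69 to 4.03 for counting error alone. Against all 3 GFP libraries the ratio was 1.86 (1.34 to 2.59).

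Jph1 encodes junctophilin 1, which ties the sarcoplasmic reticulum to the T-tubule. Jph1 (ENSMUSG00000042686.5, chromosome 1, 16964560 to 17097889) was at 13.1 CPM in both SRF-OE libraries, 17.3 CPM in the library labelled GFP1, and 18.2 and 21.8 CPM in GFP replicates 2 and 3. It was lower in both SRF-OE libraries than in all GFP libraries, with a log2 fold change of -0.54 (standard error 0.17) with the 5 libraries and -0.60 (standard error 0.18) without the library labelled GFP1.

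The voltage sensor of skeletal muscle is the calcium channel built on Cacna1s, with Cacng1 as its gamma subunit and Stac3 as an adaptor needed for coupling. Cacna1s (ENSMUSG00000026407.17, chromosome 1, 136052750 to 136119822) had 1.68 and 1.84 CPM in SRF-OE replicates 2 and 3, 2.76 CPM in the library labelled GFP1, and 4.45 and 3.71 CPM in GFP replicates 2 and 3. The groups did not overlap, and the log2 fold change was -1.05 (standard error 0.34) with the 5 libraries and -1.21 (standard error 0.32) without the library labelled GFP1. Stac3 (ENSMUSG00000040287.9, chromosome 10, 127501686 to 127508823) had 9 and 8 counts in SRF-OE replicates 2 and 3, 7 in the library labelled GFP1 and 3 in each of GFP replicates 2 and 3. Its ratio had an exact counting interval of 0.827 to 4.05 against the 3 GFP libraries and of 0.915 to 7.53 against GFP replicates 2 and 3, so a difference was not detectable at this depth. Cacng1 (ENSMUSG00000020722.5, chromosome 11, 107703218 to 107716522) had 1, 2, 1, 0 and 1 counts in the libraries in the same order, at or under a floor of 3 counts in all 5.

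Ryr1 encodes the skeletal release channel and Atp2a1 the fast-fibre pump SERCA1, which returns calcium to the store. Ryr1 (ENSMUSG00000030592.18, chromosome 7, 29003344 to 29125179) had 13 and 9 counts in SRF-OE replicates 2 and 3, 10 in the library labelled GFP1, and 9 and 1 in GFP replicates 2 and 3, and these values overlap between the groups. Its ratio of SRF-OE to the 3 GFP libraries was 1.52, with an exact counting interval of 0.791 to 2.94, and against GFP replicates 2 and 3 it was 1.89 (0.858 to 4.47). Atp2a1 (ENSMUSG00000030730.12, chromosome 7, 126445858 to 126463108) had 1.10 and 1.27 CPM in SRF-OE replicates 2 and 3, 1.05 CPM in the library labelled GFP1, and 1.51 and 1.18 CPM in GFP replicates 2 and 3. The SRF-OE values lay within the GFP range, and the log2 fold change of -0.08 (standard error 0.40) had a counting ratio of 0.948, with an interval of 0.642 to 1.39. Without the library labelled GFP1 they were -0.19 (standard error 0.42) and 0.858 (0.563 to 1.31), and SRF-OE replicate 2 then lay below both GFP values.

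Of the 9 members, 7 passed edgeR's filter on low counts with the 5 libraries, all but Cacng1 and Stac3, and 6 passed without the library labelled GFP1, where Ryr1 also fell out. With the 5 libraries, 0 members and 0% of the 13754 genes tested were past the cutoff, an adjusted p under 0.05, in either direction, by edgeR. At an unadjusted p under 0.05 by edgeR there were 0 members higher and 2 lower, Jph1 and Cacna1s, beside 873 and 1044 of the 13754 genes tested. DESeq2, which gave an adjusted p for 1 of the 9 members, called 0. Without the library labelled GFP1, 2 of the 9 members, Casq1 and Sypl2, were past the cutoff as higher, where 1.98% of the 13397 genes tested were, and 0 as lower, where 0.97% were. By values that do not overlap between groups, Jsrp1 was higher and Jph1 and Cacna1s lower among the 7 members tested with the 5 libraries, beside 16.1% and 17.3% of all genes tested. Stac3, not tested, was also higher. Without the library labelled GFP1, Casq1, Sypl2 and Jsrp1 were higher and Jph1 and Cacna1s lower among the 6 tested, beside 30.8% and 30.2% of all genes tested. Stac3 was again higher and not tested. The members were chosen on this contrast, and the library labelled GFP1 was left out after its values had been seen. These counts are therefore a description, they test nothing about the members, and nothing is read from them.

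**Figure D2:**
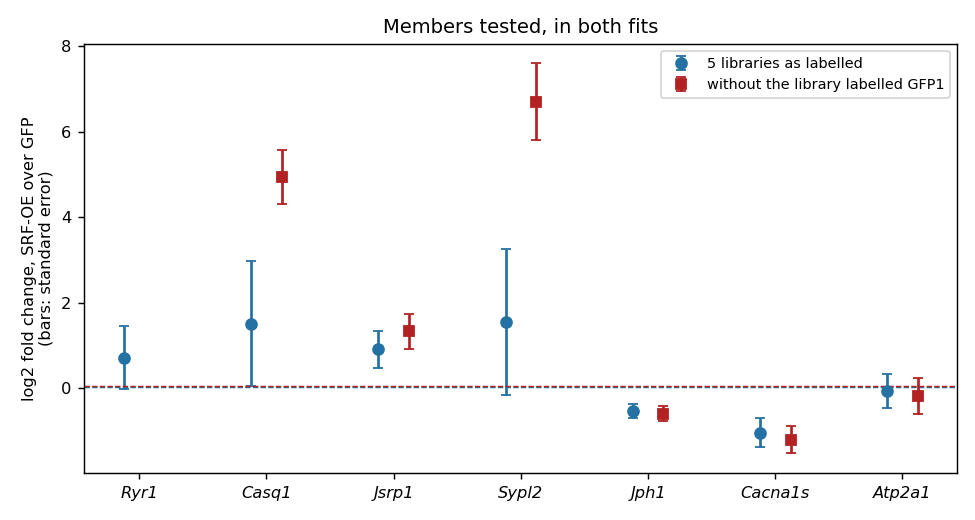
Log2 fold change of SRF-OE over GFP for the 7 members tested, with standard errors, from the 5 libraries as labelled (circles) and without the library labelled GFP1 (squares, Ryr1 not tested). Dashed lines mark the median of all genes tested, 0.03 and 0.04. Casq1 moves from 1.51 to 4.94 and Sypl2 from 1.55 to 6.71 between the fits, whereas Jph1, Cacna1s and Atp2a1 hardly move.

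Levels of different genes were compared as CPM per kb. In SRF-OE the order by mean was Casq1 at 1144, Sypl2 at 25.7, Jph1 at 2.73, Jsrp1 at 2.0, Atp2a1 at 0.344, Cacna1s at 0.281, Stac3 at 0.243, Cacng1 at 0.0604 and Ryr1 at 0.0373. The ranges of Cacna1s and Stac3 overlapped there, as did those of Cacng1 and Ryr1. In GFP replicates 2 and 3, Casq1 was still first at 37.6, followed by Jph1 at 4.16, Jsrp1 at 0.809, Cacna1s at 0.652, Atp2a1 at 0.392 and Sypl2 at 0.233. Stac3 at 0.105, Cacng1 at 0.0328 and Ryr1 at 0.0160 were last, the ranges of Jsrp1 and Cacna1s overlapped, and so did those of Cacng1 and Ryr1. Sypl2 was thus sixth in these GFP replicates and second in SRF-OE. In the library labelled GFP1 it was also second, at 25.8.

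Each skeletal form was set beside a cardiac or more general relative. For calsequestrin, Casq1 made up 44.9% and 67.5% of Casq1 and Casq2 together, per kb, in SRF-OE replicates 2 and 3. It made up 57.1% in the library labelled GFP1 and 2.88% and 4.91% in GFP replicates 2 and 3. Casq1 was thus the more abundant calsequestrin transcript in SRF-OE replicate 3 and in the library labelled GFP1. Casq2, the cardiac calsequestrin, was at 702 and 827 CPM per kb in SRF-OE, 851 in the library labelled GFP1, and 885 and 951 in GFP replicates 2 and 3. The sum of both was 1274 and 2544 CPM per kb in SRF-OE, 1982 in the library labelled GFP1, and 911 and 1000.4 in GFP replicates 2 and 3.

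Sypl, a broadly expressed relative of Sypl2, was at 28.1 and 35.5 CPM per kb in SRF-OE, 34.7 in the library labelled GFP1, and 23.9 and 20.8 in GFP replicates 2 and 3. Sypl2 made up 25.2% and 54.2% of that pair in SRF-OE, 42.6% in the library labelled GFP1, and 1.23% and 0.813% in GFP replicates 2 and 3. The share of Jph1 in the pair with Jph2, the cardiac junctophilin, was 3.63% and 4.06% in SRF-OE, 4.4% in the library labelled GFP1, and 3.66% and 3.20% in GFP replicates 2 and 3. SRF-OE replicate 3 thus lay above GFP replicates 2 and 3 and below the library labelled GFP1. Cacna1s made up 1.47% and 1.93% of the pair with Cacna1c, the cardiac channel, in SRF-OE, and 2.32%, 3.52% and 2.27% in the GFP libraries.

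The release channel and the pump stayed cardiac in all 5 libraries. Ryr1 was between 0.00439% and 0.0700% of the pair with Ryr2, and Atp2a1 between 0.00893% and 0.0211% of the pair with Atp2a2. The pair of Stac3 and Stac rests on at most 16 counts of either gene in a library, and its share of 44.1% to 76.6% is not read further.

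**Figure D3:**
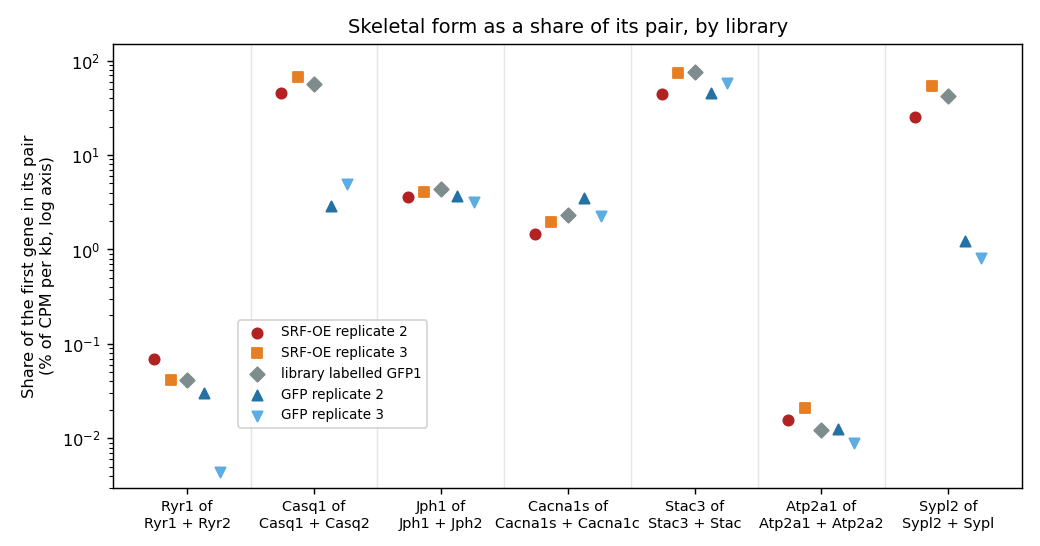
Share of the skeletal form (or of Sypl2) in its pair, in percent of CPM per kb on a log axis, for 7 pairs in each of the 5 libraries. Casq1 and Sypl2 reach 25.2% or more of their pairs in both SRF-OE libraries and in the library labelled GFP1 and stay under 5% in GFP replicates 2 and 3, while Ryr1 and Atp2a1 stay under 0.1% in all 5.

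The other genes of the triad and of calcium cycling were taken as a list of 43, of which 42 were in the table and 39 passed the filter in both fits. With the 5 libraries, edgeR called 0 of them higher and 0 lower. At an unadjusted p under 0.05 by edgeR there were 0 higher and 8 lower of the 39, beside 873 and 1044 of the 13754 genes tested. DESeq2, with an adjusted p for 21 of the 42, called 0 higher and 3 lower, Hrc, Atp2a2 and Pln. Over all genes it called 11 higher and 213 lower of 1167 with an adjusted p. Without the library labelled GFP1, edgeR called 1 of the 39 higher, Bin1, and 1 lower, Cacna2d1, beside 1.98% and 0.97% of the 13397 genes tested. These 2 edgeR calls are near the share over all genes and are not read as a result about the list. By values that do not overlap between groups, 0 of the 39 were higher and 17 lower with the 5 libraries. Over all genes tested the shares were 16.1% and 17.3%. Without the library labelled GFP1, 8 were higher and 19 lower, beside 30.8% and 30.2%. Whether the list as a set differs from all genes was not tested. The median log2 fold change of the 39 was -0.23 with the 5 libraries, beside 0.03 for all genes tested, and -0.26 without the library labelled GFP1, beside 0.04.

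Bin1 encodes amphiphysin 2, which bends membrane into T-tubules. It had 7.11 and 13.0 CPM in SRF-OE replicates 2 and 3, 7.84 CPM in the library labelled GFP1, and 2.02 and 1.26 CPM in GFP replicates 2 and 3. This was the order of Casq1 on a smaller scale, except that GFP replicates 2 and 3 changed places. In edgeR it differed by 1.42 ± 0.72 on the log2 scale (adjusted p = 0.40) with the 5 libraries and by 2.59 ± 0.42 (adjusted p = 0.048) once the library labelled GFP1 was left out. Cacna2d1, the alpha2-delta subunit that both channel types share, had 73.3 and 67.3 CPM in SRF-OE, 89.8 CPM in the library labelled GFP1, and 115 and 131 CPM in GFP replicates 2 and 3. In edgeR it differed by -0.67 ± 0.18 on the log2 scale (adjusted p = 0.35) with the 5 libraries and by -0.80 ± 0.13 (adjusted p = 0.047) once the library labelled GFP1 was left out. That library was left out after its Srf level had been seen, a choice that favours genes whose values go with Srf over the libraries. The adjusted p-values of Bin1 and Cacna2d1 without it are therefore a description.

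Other genes of that list with a mean of at least 100 CPM are given as values, since none of them passed edgeR's cutoff in either fit. Values are log2 fold changes with the 5 libraries, then without the library labelled GFP1. Among release channel genes they were -0.51 and -0.64 for Ryr2, 0.04 and 0.12 for Fkbp1a, 0.25 and 0.54 for Calm2, -0.41 and -0.48 for S100a1, and 0.02 and -0.04 for Speg. Among proteins that hold calcium in the store, they were -0.23 and -0.26 for Casq2, -0.95 and -1.11 for Hrc, and -0.29 and -0.32 for Srl. In the junction they were -0.05 and -0.02 for Trdn, which anchors calsequestrin to the release channel, -0.40 and -0.52 for Asph, -0.62 and -0.79 for Jph2, 0.26 and 0.51 for Sypl, and -0.17 and -0.14 for Tmem38a. In the T-tubule membrane they were 0.03 and 0.06 for Cav3 and 0.01 and 0.10 for Dysf, and among channel subunits -0.37 and -0.45 for Cacna1c and -0.28 and -0.37 for Cacnb2. They were -0.80 and -0.96 for Atp2a2, the cardiac pump, and -0.66 and -0.78 for Pln, the inhibitor of that pump. They were -0.11 and -0.20 for Slc8a1, the sodium-calcium exchanger, and -0.38 and -0.51 for the kinase gene Camk2d. Sln, which encodes a pump inhibitor of atrial CMs, had 64.8 and 2.71 CPM in SRF-OE, 8.84 CPM in the library labelled GFP1 and 74.0 and 0.237 CPM in GFP replicates 2 and 3, a spread within each group that its log2 fold change of 0.27 (standard error 1.70), or -0.16 (standard error 1.79) without the library labelled GFP1, does not show.

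**Figure D4:**
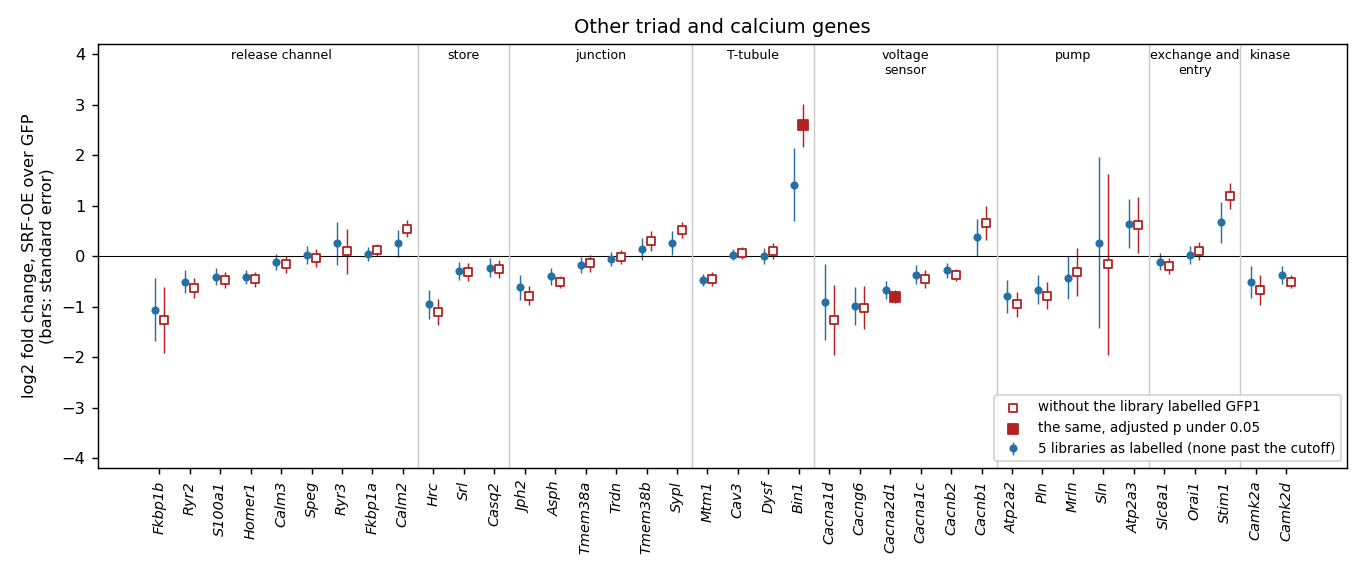
Log2 fold change of SRF-OE over GFP, with standard errors, for 38 of the 39 other triad and calcium genes tested, ordered by role. Bin1 at 2.59 and Cacna2d1 at -0.80 are the 2 genes past the cutoff without the library labelled GFP1, and with the 5 libraries as labelled none is.

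Genes that identify skeletal muscle were measured beside the members, as a list of 28. Of these, 12 had at most 3 counts in every library, among them the myogenic factors Myod1, Myf5, Myf6 and Myog and the satellite cell gene Pax7. The 4 myogenic factors together had 1 or 2 counts in each library. The fast myosin heavy chain gene Myh4 had at most 6 counts in any library, and Pvalb, the calcium buffer of fast fibres, also at most 6. Of the other fast myosin heavy chain genes, Myh1 reached 11 counts and Myh2 14, both in SRF-OE replicate 3. Fast fibre genes were not absent as a group. The 11 listed summed to 478 and 1769 CPM in SRF-OE replicates 2 and 3. Their sum was 1578 CPM in the library labelled GFP1 and 123 and 146 CPM in GFP replicates 2 and 3. With the 5 libraries, edgeR called 0 of the 10 genes tested. At an unadjusted p under 0.05, 1 was higher, beside 873 of all 13754 genes tested. DESeq2, with an adjusted p for 1 of the 28, called 0. Without the library labelled GFP1, 2 of 10 were called higher, Myl1 and Tnnt3, and 0 lower, beside 1.98% and 0.97% of the 13397 genes tested. These calls, too, rest on leaving out a library after its values had been seen. The median log2 fold change of the 10 was 0.98 with the 5 libraries, beside 0.03 for all genes tested, and 1.72 without the library labelled GFP1, beside 0.04.

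Myl1, an essential light chain of fast fibres, had 406 and 1646 CPM in SRF-OE replicates 2 and 3, 1458 CPM in the library labelled GFP1, and 58.9 and 56.0 CPM in GFP replicates 2 and 3. Tnnt3, the fast troponin T, had 84 and 517 counts in SRF-OE, 412 in the library labelled GFP1, and 3 and 1 in GFP replicates 2 and 3, a ratio of 129 with an exact counting interval of 50.1 to 475. With the 5 libraries, the log2 fold change by edgeR was 0.97 for Myl1 (adjusted p = 0.76) and 1.04 for Tnnt3 (adjusted p = 0.78). Both genes were highest in SRF-OE replicate 3, then in the library labelled GFP1, then in SRF-OE replicate 2, as were Casq1 and Sypl2. Mylpf and Actn3 had this order too, at lower levels. Mylpf had 3.30 and 6.91 CPM in SRF-OE replicates 2 and 3, 4.89 CPM in the library labelled GFP1, and 1.06 and 0.316 CPM in GFP replicates 2 and 3. Actn3 had 11, 26, 20, 2 and 0 counts in the same libraries. Tnni2, Mybpc2 and Tnnt1 did not have this order, although Mybpc2 was also highest in SRF-OE replicate 3 and then in the library labelled GFP1. Their log2 fold changes were -0.24, -0.07 and -0.22 with the 5 libraries and 0.11, 0.04 and -0.24 without the library labelled GFP1. Chrnb1, an endplate receptor subunit, had 5.84 and 8.09 CPM in SRF-OE, 5.32 CPM in the library labelled GFP1 and 2.61 and 2.45 CPM in GFP replicates 2 and 3.

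The sorted cells carried the markers of CMs in all libraries, with 7 of 7 markers present and a summed level of 77580 and 74833 CPM in SRF-OE and 79731, 97322 and 116034 CPM in the libraries labelled GFP1, GFP2 and GFP3. The 5 endothelial markers summed to 524 and 199 CPM in SRF-OE and to 405, 214 and 212 CPM in GFP in the same order, and the 5 fibroblast markers to 326 and 175 CPM and to 190, 137 and 120 CPM. The 3 smooth muscle markers summed to 71.9 and 137 CPM in SRF-OE and to 39.8, 20.1 and 47.9 CPM in GFP, and the 4 leukocyte markers to 27.6 and 10.7 CPM and to 19.5, 11.1 and 9.08 CPM. Casq1 and Sypl2 were higher in SRF-OE replicate 3, which had the lower endothelial, fibroblast and leukocyte sums and the higher smooth muscle sum of the SRF-OE libraries. The part of these other cells in the results was not tested, and in sorted bulk RNA a different number of cells of a type and a different amount of RNA per cell cannot be told apart.

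Likeness in profile over the 5 libraries, the one labelled GFP1 included, was read from the distance between centred log2 values. The median centred profile of the 7 members that passed the filter was shallow, from 0.42 in SRF-OE replicate 2 to -0.40 in GFP replicate 3 on the log2 scale, because the members differ among themselves. Of the 10 genes with the smallest Euclidean distance to it, 9 were Slc26a11, C330027C09Rik, Ccng2, Scgb1c1, Gabpb1, Sp1, Gnai3, Cdk14 and Fnbp1l, at distances from 0.149 to 0.192. Between members, the distance was 1.52 for Casq1 and Sypl2 and at least 4.52 from either of them to any other member, while the 7 remaining members lay within 2.02 of each other. Only 5 libraries stand behind these distances.

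Reads of the members could be shared with other genes to a limited extent. Of the 50-base windows of the longest coding transcript, 3.34% in Casq1 and 0% in Sypl2 occurred in a transcript of another gene. The share was 16.4% in Cacna1s and 18.3% in Atp2a1, whose exons share 763 bases with Rabep2 on the opposite strand. Whether the counting used strand is not given in the sources used here, so the low counts of Atp2a1 and Cacna1s are uncertain in that respect.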

How the data were processed

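RNA of GFP+ CMs was amplified from full-length cDNA (SMART-Seq v4) and made into Nextera XT libraries. Alignment to mm10 used STAR 2.5.3a, and the authors counted reads per gene with featureCounts (Subread 1.5.2), per the labels, and deposited raw counts in 1 table. Settings for strand and multiply mapped reads are not given in the sources used here. In the deposited table the column headed SRF-OE replicate 1 has 0 zeros, and 51.0% of its values over 20929 genes lie within 5% of the longest GENCODE M21 transcript. It was used as gene length only, and 0 other value columns were left unused. Columns were assigned by name.

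edgeR 4.0.16 in R 4.3.3 was run with filterByExpr, TMM, the quasi-likelihood test and a Benjamini-Hochberg cutoff of 0.05 over all genes tested. The standard error is the log2 fold change divided by the square root of F. Alternatives were DESeq2 1.42.0 (the paper's tool), its size factors, no filter, at least 10 counts in every library, a replicate block and leaving out each library. The fits were tested on simulated counts.

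The members and lists were chosen with earlier results of these data known. Named are the members, Srf, the paralogs, listed genes that passed the cutoff or averaged 100 CPM or more, and the 10 genes nearest in log2(CPM + 0.5) profile among genes averaging 5 CPM or more. Sln and the other skeletal muscle and marker genes given with values were added after their values were seen. The smallest exact permutation p is 0.1 for 2 against 3 libraries, so no such test was made. Some genes that meet these rules are not reported here.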

Additional observations from a re-analysis of the deposited data

How the results depend on the processing

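Results with the 5 libraries depended on the library labelled GFP1, and alternatives on the 4 other libraries were chosen after seeing the data. The replicate block on 5 libraries changes 2 things at once, since the library labelled GFP1 is the sole one numbered 1 and then has no weight in the contrast. The count of genes higher and lower went from 0 and 0 to 11 and 213 with DESeq2 and to 582 and 432 with the replicate block, and ranged from 0 to 265 and from 0 to 130 with 1 library left out. On the 4 libraries the counts were 330 and 206 with DESeq2 size factors, 1660 and 1303 with no filter, 55 and 9 with at least 10 counts, 853 and 832 with DESeq2 and 547 and 392 with the replicate block. Of the other triad and calcium genes, 0 higher and 0 lower became 0 and 3 with DESeq2, 2 and 2 with the replicate block and 0 to 1 in each direction with 1 library left out. On the 4 libraries they became 1 and 1 with DESeq2 size factors, 5 and 12 with no filter, 2 and 8 with DESeq2 and 2 and 2 with the replicate block. DESeq2 there gave an adjusted p for 39 of them, and over all genes it called 853 higher and 832 lower of 13559. Of the skeletal muscle identity genes, 0 higher became 3 with the replicate block and 0 to 2 with 1 library left out, and on the 4 libraries 2, 6, 4 and 2 under the same settings, with 1 lower with no filter. DESeq2 on the 4 libraries gave an adjusted p for 10 of them. The genes tested differ between settings, so each list count belongs beside the count over all genes under its own setting. With at least 10 counts on the 4 libraries, edgeR called 0 of both lists.

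The median log2 fold change of the members tested, 0.71, was -0.054 with at least 10 counts in every library, 1.24 with the replicate block and 0.20 to 0.57 with 1 library left out. On the 4 libraries it was 1.11 with no filter, -0.17 with at least 10 counts and 1.13 with DESeq2. These medians cover different members, since fewer pass a stricter filter. Over all alternatives Casq1 ranged from 0.49 to 4.96, Sypl2 from 0.09 to 6.78, Jsrp1 from 0.66 to 1.36, Jph1 from -0.61 to -0.43, Cacna1s from -1.22 to -0.87 and Atp2a1 from -0.20 to 0.09. Without SRF-OE replicate 3, Casq1 was at 0.49 and Sypl2 at 0.09. Without a length correction the difference in the share of Atp2a1 was 0.00431 in place of 0.00718 percentage points.

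The labels tie same-numbered libraries to no shared animal or batch, so the numbers were not taken to pair them. With the 5 libraries, their deviations from the group means correlated over genes at 0.396 for number 2 and -0.0740 for number 3. Without the library labelled GFP1 the value was 0.217 for number 2. These correlations cannot decide pairing, because the deviations of the 2 SRF-OE libraries from their mean are equal and opposite. A fit without an SRF-OE library leaves 1, assumed to vary like the others. The cause of the changes was not tested, apart from the library left out.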

Other observations

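Genes nearest in profile to Casq1 and to Sypl2 alone were looked up after the values had been seen, by the distance used for the members. The nearest to Casq1 were 2310005G13Rik at 0.496, Synm, an intermediate filament gene, at 0.622 and Ptgs2, an inducible prostaglandin synthase, at 0.741. Synm had 80.9 and 265 CPM in SRF-OE replicates 2 and 3, 137 CPM in the library labelled GFP1, and 3.49 and 4.03 CPM in GFP replicates 2 and 3. The nearest to Sypl2 were Rtl1, an imprinted gene, at 0.322, Krt18, a keratin of simple epithelia, at 0.701 and Sprr1a at 0.830. Rtl1 had 13.1 and 58.9 CPM in SRF-OE, 38 CPM in the library labelled GFP1, and 0.275 and 0.0789 CPM in GFP replicates 2 and 3. These are descriptions over 5 libraries out of 9909 genes searched.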
